A study of Homo sapiens with 6 samples.

Results

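The serine proteases and protease inhibitors described here were 5 tissue kallikreins (KLK5, KLK6, KLK7, KLK8 and KLK10), 3 proteases anchored at the cell surface (ST14, PRSS8 and TMPRSS4) and the inhibitors SPINT1 and SPINT2. They were taken as every probe set whose platform annotation gave exactly 1 symbol, equal to one of these names, which found 16 of 54675 probe sets and 10 of 19775 genes. The members, and the related gene lists used below, were set by name with earlier results of these data known. Their counts are therefore no independent evidence about these groups. RNA was measured on 6 short-oligonucleotide arrays, 2 for each of 3 human lines. TEM4-18 and TEM2-5 are PC-3 derivatives, each isolated after its own round of migration through a layer of lung microvascular endothelial cells, and PC-3 itself, the parental line, was the control for both. PC-3 is a prostate cancer line that was started from a bone metastasis. All lines were kept in the same DMEM/F12 medium with serum. Each TEM line comes from 1 isolation. Nothing in the labels says whether a line's 2 arrays used different cultures, so p-values measure only the spread between arrays, which may be technical.

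Tissue kallikreins are secreted serine proteases whose genes lie side by side on chromosome 19. They are made as inactive precursors and activate each other in cascades, best known from the shedding of the outer skin, where KLK5 starts the cascade and KLK7 cuts the proteins that hold the corneocytes together. Matriptase, the product of ST14, spans the plasma membrane of most epithelial cells. It works with prostasin, the lipid-anchored product of PRSS8, and is held in check by the Kunitz-type inhibitors that SPINT1 and SPINT2 encode, also called hepatocyte growth factor activator inhibitors. Together they act on growth factor precursors, protease-activated receptors, the epithelial sodium channel and junction proteins.

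Values are signal intensities in array units, as deposited. The array medians lay between 267 and 317, and the log2 signals of a line's 2 arrays correlated at 0.976 to 0.980 across probe sets, which are not independent replicates. All 5 epithelial markers (EPCAM, CDH1, KRT8, KRT18 and KRT19) were tested, and all 5 were lower in both TEM lines. Their summed signal was 62194 to 68654 in TEM4-18 and 75467 to 82589 in TEM2-5, against 174728 to 181499 in PC-3. Of 12 endothelial markers, 5 passed the filter on low signals described below, and KDR, ESAM and ROBO4 were higher in TEM4-18 and KDR and ROBO4 in TEM2-5. The summed endothelial signal was 4153 to 5381 in TEM4-18 and 4432 to 4628 in TEM2-5, against 2961 to 3184 in PC-3. The endothelial markers CDH5, VWF, TEK, TIE1, CLDN5, EMCN and ERG lay below the filter, while PECAM1 and EGFL7 were tested and not called in either line. Of 7 fibroblast markers, 6 were tested: COL1A1 was higher in both TEM lines, PDGFRA was lower in TEM4-18 and higher in TEM2-5, and LUM was lower in TEM4-18. The summed fibroblast signal was 20116 to 23332 in TEM4-18 and 22034 to 25409 in TEM2-5, against 9169 to 10814 in PC-3. Most of this sum was COL1A1, at 18862 and 22388 in TEM4-18, 18052 and 21920 in TEM2-5, and 6869 and 8299 in PC-3. The median over the fibroblast markers did not rise, at 86.8 to 132 in TEM4-18 and 308 to 324 in TEM2-5, against 314 to 381 in PC-3. Of 5 leukocyte markers with a probe set, only ITGAM was tested, and it was not called. The part of these markers in the results was not tested. Of 5 prostate luminal markers with a probe set, KLK2, FOLH1 and ACP3 lay below the filter, while KLK3 and TMPRSS2 passed it. EPCAM, KLK2, KLK3 and TMPRSS2 also belong to the related lists below, with the same probe sets, and are no separate results there.

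The surface protease ST14, the kallikreins KLK5 and KLK6, the surface protease PRSS8 and the inhibitors SPINT1 and SPINT2 were lower in both TEM lines than in PC-3, and no tested member was higher. Linear models were fitted with limma to log2(signal + 51.8) of all probe sets whose mean over the 6 arrays exceeded 174. Adjusted p-values are Benjamini-Hochberg values over all 32768 tested probe sets of a comparison, with a threshold of 0.05. Each gene was counted by its brightest probe set. By that rule 8 of 10 member genes were tested, and 6 of 8 were lower and 0 higher in TEM4-18, where 16% of all 13621 tested genes were lower and 13.3% higher. In TEM2-5 the same 6 genes were lower and 0 higher, against a background of 10.1% lower and 8.98% higher. Without the mean-variance trend of the variance model, the TEM2-5 count was 5, since SPINT2 no longer passed. The median log2 fold change over the tested members was -2.88 in TEM4-18 and -2.09 in TEM2-5, while over all tested genes it was -0.038 in TEM4-18 and -0.024 in TEM2-5. Both comparisons used the same 2 PC-3 arrays. For the average of the TEM lines set against PC-3, 6 of 8 were lower and 0 higher, with 16.2% of all tested genes lower and 13.8% higher. KLK7 and KLK8 were tested and did not pass in any of these comparisons, and KLK10 and TMPRSS4 lay below the filter. The brightest probe set of KLK7, with a mean of 186, lay just above the filter, and that of KLK10, with a mean of 48.8, was the nearest below it. In bulk RNA, fewer cells that make a transcript and less of it per cell cannot be told apart.

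**Figure D1:**
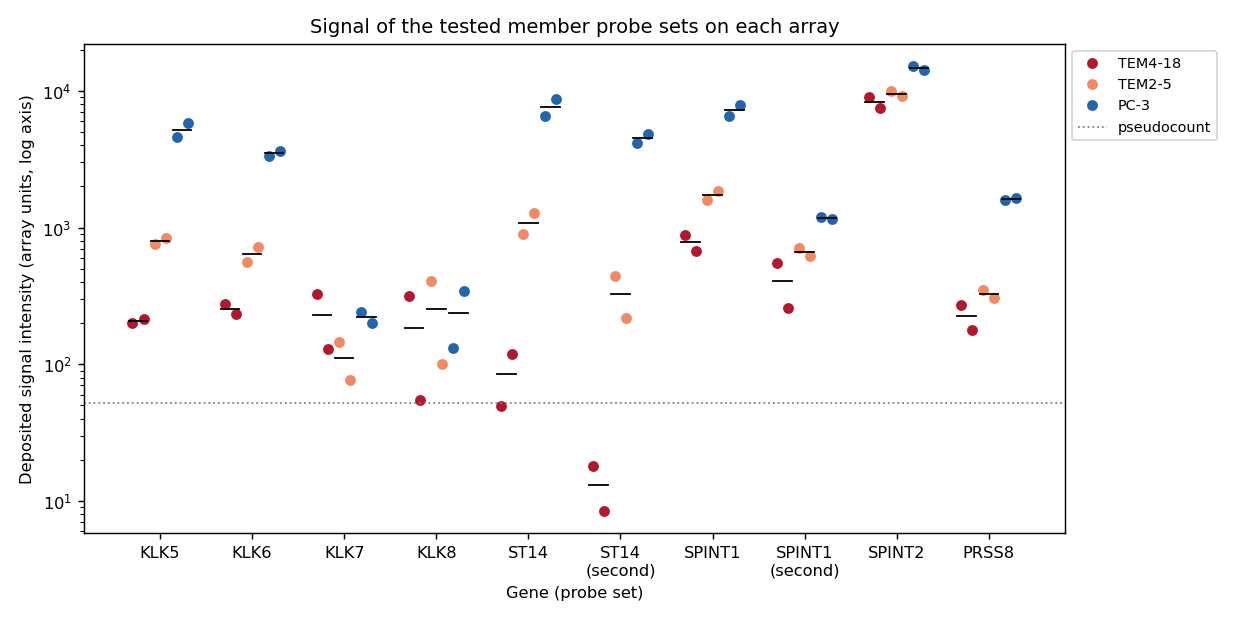
Deposited signal intensity (log axis, array units) of the 10 member probe sets that passed the filter, with a point for each array, a black bar at the mean of each line's 2 arrays and a dotted line at the pseudocount of 51.8. For KLK5, KLK6, PRSS8, SPINT2 and both probe sets of ST14 and SPINT1, every PC-3 point lies above every TEM point, while the points of the lines overlap for KLK7 and KLK8.

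KLK5 and KLK6 encode trypsin-like kallikreins, and KLK6 is also known from the central nervous system as neurosin. The signal of KLK5 (probe set 222242_s_at) was 199 and 216 on the TEM4-18 arrays and 758 and 836 on the TEM2-5 arrays, against 4569 and 5827 on the PC-3 arrays. The 3 lines did not overlap, with TEM4-18 lowest and PC-3 highest. Its log2 fold change against PC-3 was -4.33 ± 0.17 in TEM4-18 (adjusted p = 7.44e-08) and -2.62 ± 0.17 in TEM2-5 (adjusted p = 9.93e-06), errors being standard errors of the fit. KLK6 (probe set 204733_at) had signals of 277 and 232 on the TEM4-18 arrays and 564 and 717 on the TEM2-5 arrays, against 3339 and 3637 on the PC-3 arrays. The order of the lines was the same and again without overlap. The log2 fold changes of KLK6 were -3.53 ± 0.18 in TEM4-18 (adjusted p = 5.02e-07) and -2.36 ± 0.18 in TEM2-5 (adjusted p = 2.46e-05). On this scale the mean signal of KLK5 in TEM4-18 was lower by 20.1-fold and that of KLK6 by 11.6-fold, values that the pseudocount makes smaller for low signals.

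KLK5 and KLK6 are neighbours that fell together, so their promoter windows are shown, as RefSeq gives them for GRCh38.p14 and from 250 bases before to 50 after the transcription start, written 5′ to 3′ on the gene's strand. Capitals mark the letters CACCTG on either strand (CAGGTG on the other), an E-box that repressors of the ZEB and Snail families can bind. The first lies at chr19:50952989-50953288 and the second at chr19:50969542-50969841, both on the minus strand.
KLK5: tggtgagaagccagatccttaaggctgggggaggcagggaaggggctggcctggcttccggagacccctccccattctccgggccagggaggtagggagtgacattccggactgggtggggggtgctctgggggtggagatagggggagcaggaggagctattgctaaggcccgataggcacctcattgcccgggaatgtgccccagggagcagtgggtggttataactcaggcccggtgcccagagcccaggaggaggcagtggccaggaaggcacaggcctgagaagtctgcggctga
KLK6: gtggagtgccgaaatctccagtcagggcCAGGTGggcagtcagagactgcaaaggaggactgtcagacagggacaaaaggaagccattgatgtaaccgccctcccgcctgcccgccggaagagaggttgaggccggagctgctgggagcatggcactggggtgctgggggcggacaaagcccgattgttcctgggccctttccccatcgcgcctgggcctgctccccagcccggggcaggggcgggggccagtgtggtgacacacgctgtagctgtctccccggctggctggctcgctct
The KLK5 window held no CACCTG, and that of KLK6 held 1, at -222 to -217 from the start. The shorter core CACCT, which CACCTG contains and which was added after the first search, occurred once in each, at -71 to -67 in KLK5 and, within the longer motif, at -221 to -217 in KLK6. CACCTG on either strand was found in 20.6% of all 35116 windows of the same length, and CACCT in 51.6%. Windows were available for 5 members, and 3 of these 5 genes held CACCTG in at least 1 window, against 24.1% of all 27305 genes. A gene with more windows has more chances to hold the letters. By window, 3 of the members' 9 held CACCTG, against 20.6% of all windows. The 3 genes included KLK7, whose brightest probe set was not called in either TEM line. No test was made, and a match of letters does not show that a factor binds there.

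The brightest probe sets of KLK7 and KLK8, the next kallikreins in the cluster, did not pass the test, and KLK10 was not tested. KLK7 encodes a chymotrypsin-like protease of the skin, and its 2 probe sets disagreed. The brighter, 239381_at, read 326 and 130.2 on the TEM4-18 arrays and 145 and 76.9 on the TEM2-5 arrays, against 239 and 202 on the PC-3 arrays, with log2 fold changes of -0.051 ± 0.49 in TEM4-18 (adjusted p = 0.957) and -0.77 ± 0.49 in TEM2-5 (adjusted p = 0.341). The TEM4-18 arrays enclosed both PC-3 values here, while the TEM2-5 arrays lay below them. The other, 205778_at, read 28.0 and 61.6 on the TEM4-18 arrays and 119 and 66.8 on the TEM2-5 arrays, against 258 and 214 on the PC-3 arrays, with every TEM array below both PC-3 arrays, but its mean lay below the filter. In the fit with no filter, an alternative setting, its log2 fold changes were -1.59 in TEM4-18 (adjusted p = 0.0417) and -1.01 in TEM2-5 (adjusted p = 0.228). A fall of KLK7 therefore depends on which probe set is read.

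KLK8 encodes a protease also called neuropsin. Its brighter probe set, 206125_s_at, read 316 and 54.4 on the TEM4-18 arrays and 406 and 100.2 on the TEM2-5 arrays, against 133 and 344 on the PC-3 arrays. Arrays of the same line differed here by more than the lines did, and the log2 fold changes were -0.45 ± 0.70 in TEM4-18 (adjusted p = 0.698) and -0.035 ± 0.70 in TEM2-5 (adjusted p = 0.983). Its second probe set, 1552319_a_at, lay below the filter at 48.3 to 299 over the 6 arrays. A further probe set that the annotation gives to both KLK8 and KLK9 was left out. KLK10, described in breast epithelium as a gene of normal cells that is lost in cancer, lay below the filter on both probe sets. Its probe set 209792_s_at read 20.03 and 11.6 on the TEM4-18 arrays and 20.6 and 51.8 on the TEM2-5 arrays, against 68.1 and 41.3 on the PC-3 arrays. The other, 215808_at, read 154 and 70.2 on the TEM4-18 arrays and 18.4 and 22.5 on the TEM2-5 arrays, against 17.2 and 9.98 on the PC-3 arrays, so that only the TEM4-18 arrays exceeded the pseudocount. In the fit with no filter it stood at 1.28 in TEM4-18 (adjusted p = 0.0423), whereas 209792_s_at stood at -0.65 (adjusted p = 0.261), and the 2 probe sets thus differed in sign.

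**Figure D2:**
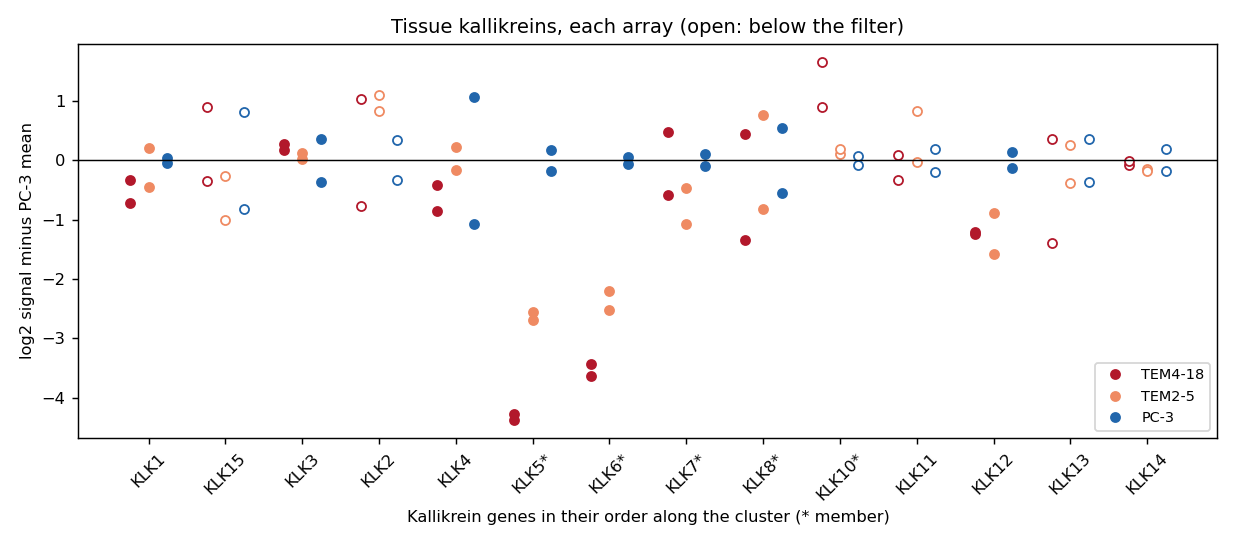
Log2 signal of 14 tissue kallikreins on each array, minus the PC-3 mean of the same gene, in their order along the chromosome 19 cluster (brightest probe set per gene, filled where it passed the filter, starred where it is a member). In TEM4-18, KLK5 stands at -4.33 and KLK6 at -3.53 against PC-3, and KLK12 is the only other kallikrein called.

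RefSeq lists 15 tissue kallikreins in the cluster, of which 14 had a single-symbol probe set and 8 were tested. Of the 10 tissue kallikreins outside the member list, 4 were tested, and 1 was lower and 0 higher in each TEM line. Over all tested genes the share called lower was 16% in TEM4-18 and 10.1% in TEM2-5, so 1 of 4 is no result about this group. The gene that fell was KLK12. It read 379 and 392 on the TEM4-18 arrays and 499.9 and 290.1 on the TEM2-5 arrays, against 1068 and 877 on the PC-3 arrays. All TEM values of KLK12 lay below both PC-3 values, and its log2 fold changes were -1.22 ± 0.26 in TEM4-18 (adjusted p = 0.00608) and -1.23 ± 0.26 in TEM2-5 (adjusted p = 0.00959). KLK3, which encodes prostate-specific antigen, read 1143 and 1230.0 on the TEM4-18 arrays and 1101 and 1016 on the TEM2-5 arrays, against 1301 and 770.0 on the PC-3 arrays. These ranges overlapped, and the log2 fold changes of KLK3 were 0.23 ± 0.22 in TEM4-18 (adjusted p = 0.497) and 0.074 ± 0.22 in TEM2-5 (adjusted p = 0.866). KLK1 and KLK4 did not pass either: on the log2 scale KLK1 stood at -0.53 in TEM4-18 and -0.13 in TEM2-5, and KLK4 at -0.64 in TEM4-18 and 0.031 in TEM2-5. KLK2, KLK11, KLK13, KLK14 and KLK15 lay below the filter, and KLK9 was not analysed here. The probe sets read for KLK12 and KLK3 end in _x_at and can match related transcripts, so their signals may not be specific to these genes.

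ST14, the matriptase gene, showed the widest gap between the lines among the members tested. Its brightest probe set, 202005_at, read 49.2 and 119.7 on the TEM4-18 arrays and 893 and 1275 on the TEM2-5 arrays, against 6527 and 8716 on the PC-3 arrays. PC-3 was highest, TEM2-5 intermediate and TEM4-18 close to the pseudocount, without overlap. The log2 fold changes were -5.85 ± 0.27 in TEM4-18 (adjusted p = 1.83e-07) and -2.76 ± 0.27 in TEM2-5 (adjusted p = 8.79e-05). On the linear scale, the mean of 84.5 in TEM4-18 and 1084 in TEM2-5 stood against 7621 in PC-3, a ratio to PC-3 of 0.0111 in TEM4-18 and 0.142 in TEM2-5. A second probe set, 216905_s_at, read 17.9 and 8.45 on the TEM4-18 arrays and 441 and 216 on the TEM2-5 arrays, against 4163 and 4842 on the PC-3 arrays. It gave the same order of lines, with log2 fold changes of -6.13 ± 0.31 in TEM4-18 (adjusted p = 3.87e-07) and -3.64 ± 0.31 in TEM2-5 (adjusted p = 4.2e-05). The mean of the third, 216906_at, lay below the filter, with signals over the 6 arrays of 18.6 to 146. The TEM4-18 mean of ST14 lay below the filter, which the gene passed through the other lines. Its fold change in TEM4-18 depended on the settings: the log2 value was -6.60 with a pseudocount of 1, -4.74 with 4 times the pseudocount and -4.03 with all 3 probe sets averaged, each with an adjusted p of at most 2.09e-05.

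PRSS8 encodes prostasin, a protease that acts with matriptase at epithelial surfaces. Its single probe set, 202525_at, read 273 and 178 on the TEM4-18 arrays and 350.0 and 306 on the TEM2-5 arrays, against 1581 and 1656 on the PC-3 arrays. Every TEM array lay below both PC-3 arrays, and the TEM2-5 values stood above those of TEM4-18. The log2 fold changes were -2.61 ± 0.24 in TEM4-18 (adjusted p = 2.46e-05) and -2.14 ± 0.24 in TEM2-5 (adjusted p = 0.000236). TMPRSS4, a transmembrane protease reported as raised in pancreatic and other carcinomas, had 1 probe set, which read 15.0 and 29.6 on the TEM4-18 arrays and 39.7 and 28.6 on the TEM2-5 arrays, against 57.1 and 23.6 on the PC-3 arrays. These signals lay near or below the pseudocount in all 3 lines and were not tested.

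A list of other membrane-anchored and related serine proteases gave counts near the background. Of 22 listed, 9 were tested, and 1 was lower and 1 higher in each TEM line, with a median log2 fold change of 0.48 in TEM4-18 and 0.23 in TEM2-5. Over all tested genes the shares were 16% lower and 13.3% higher in TEM4-18 and 10.1% lower and 8.98% higher in TEM2-5, so 1 of 9 is no result about this group. The gene that rose was TMPRSS2, an androgen-regulated transmembrane protease of the prostate. It read 2614 and 2222 on the TEM4-18 arrays and 2127 and 2061 on the TEM2-5 arrays, against 921 and 529 on the PC-3 arrays. All TEM values exceeded both PC-3 values, with log2 fold changes of 1.71 ± 0.21 in TEM4-18 (adjusted p = 0.000207) and 1.51 ± 0.21 in TEM2-5 (adjusted p = 0.000931). PRSS22, an epithelial tryptase, was the gene that fell, with log2 fold changes of -1.19 ± 0.20 in TEM4-18 (adjusted p = 0.00162) and -0.80 ± 0.20 in TEM2-5 (adjusted p = 0.0227). HPN, the gene of hepsin, a surface protease raised in many prostate cancers and singled out here after its values were seen, stood at -0.45 ± 0.24 in TEM4-18 (adjusted p = 0.220) and -0.25 ± 0.24 in TEM2-5 (adjusted p = 0.558).

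SPINT1 encodes the membrane-bound inhibitor that binds matriptase at the cell surface. Its brightest probe set, 202826_at, read 887 and 672 on the TEM4-18 arrays and 1596 and 1839 on the TEM2-5 arrays, against 6591 and 7902 on the PC-3 arrays. The lines did not overlap, in the same order as for ST14. Its log2 fold changes were -3.14 ± 0.16 in TEM4-18 (adjusted p = 3.92e-07) and -2.04 ± 0.16 in TEM2-5 (adjusted p = 2.42e-05). The second probe set, 235546_at, read 549 and 259.7 on the TEM4-18 arrays and 712 and 615 on the TEM2-5 arrays, against 1198 and 1159.7 on the PC-3 arrays. It was also lower on every TEM array, but by less, with log2 fold changes of -1.51 ± 0.28 in TEM4-18 (adjusted p = 0.00256) and -0.79 ± 0.28 in TEM2-5 (adjusted p = 0.0849), so that the fall in TEM2-5 passed the threshold on the brighter probe set and not on the other.

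RefSeq gives SPINT1 a pair of start sites, whose windows are shown because this gene fell on both of its probe sets in TEM4-18. They lie at chr15:40843798-40844097 and chr15:40844227-40844526 on the plus strand of GRCh38.p14, with CACCTG on either strand in capitals.
SPINT1, first start: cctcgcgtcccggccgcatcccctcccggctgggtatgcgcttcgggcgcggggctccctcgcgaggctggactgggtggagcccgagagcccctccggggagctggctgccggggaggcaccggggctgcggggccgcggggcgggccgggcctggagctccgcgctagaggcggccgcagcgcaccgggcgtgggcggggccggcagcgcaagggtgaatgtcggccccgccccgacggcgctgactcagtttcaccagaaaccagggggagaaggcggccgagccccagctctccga
SPINT1, second start: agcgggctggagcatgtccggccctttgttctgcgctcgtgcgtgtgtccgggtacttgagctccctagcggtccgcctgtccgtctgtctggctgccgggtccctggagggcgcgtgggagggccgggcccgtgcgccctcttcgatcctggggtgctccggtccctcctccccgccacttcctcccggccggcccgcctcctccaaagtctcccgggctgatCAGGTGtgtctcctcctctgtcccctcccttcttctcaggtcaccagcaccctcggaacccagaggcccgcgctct
The first window held neither CACCTG nor CACCT, and 77.7% of its bases were G or C. The second held 1 CACCTG, read as CAGGTG at -26 to -21, and was 69.7% G or C. The windows of KLK5 and KLK6 were 64.7% and 66.3% G or C, against a median of 58.7% over all windows. Which start the probe sets read was not determined.

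SPINT2, the second Kunitz-type inhibitor, changed least among the members that fell. Its single probe set, 210715_s_at, read 8939.5 and 7479.5 on the TEM4-18 arrays and 9994 and 9106 on the TEM2-5 arrays, against 15118 and 14209 on the PC-3 arrays. All TEM values lay below both PC-3 values, with a ratio of the line mean to the PC-3 mean of 0.560 in TEM4-18 and 0.651 in TEM2-5. The log2 fold changes were -0.84 ± 0.10 in TEM4-18 (adjusted p = 0.000146) and -0.62 ± 0.10 in TEM2-5 (adjusted p = 0.00210). The call in TEM2-5 was lost without the mean-variance trend (adjusted p = 0.0657).

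Protease and inhibitor were also compared within each array. The log2 signal of ST14 minus that of SPINT1, relative to its PC-3 mean, was -3.28 and -2.14 on the TEM4-18 arrays and -0.87 and -0.57 on the TEM2-5 arrays, against -0.077 and 0.077 on the PC-3 arrays. ST14 was thus lower relative to SPINT1 on all 4 TEM arrays, and more so in TEM4-18. For PRSS8 minus SPINT1 the values were 0.59 and 0.47 on the TEM4-18 arrays and 0.087 and -0.28 on the TEM2-5 arrays, against 0.098 and -0.098 on the PC-3 arrays. On this probe set of SPINT1, the TEM4-18 arrays stood above the PC-3 arrays. The size of this gap depended on the pseudocount. With a pseudocount of 1, the log2 fold changes in TEM4-18 were -2.87 for PRSS8 and -3.22 for SPINT1, against -2.61 and -3.14 with 51.8. With 4 times the pseudocount they were -2.08 for PRSS8 and -2.92 for SPINT1. With the second probe set of SPINT1, a choice made after the values were seen, PRSS8 minus SPINT1 was -1.33 and -0.88 on the TEM4-18 arrays and -1.37 and -1.34 on the TEM2-5 arrays, against -0.055 and 0.055 on the PC-3 arrays, so the sign in TEM4-18 depended on the probe set. For ST14 minus SPINT1, the second probe set gave -5.20 and -3.49 on the TEM4-18 arrays and -2.32 and -1.63 on the TEM2-5 arrays, against -0.23 and 0.23 on the PC-3 arrays, with the same sign as the first on all 4 TEM arrays. PRSS8 minus SPINT2 gave -1.65 and -1.89 on the TEM4-18 arrays and -1.50 and -1.54 on the TEM2-5 arrays, against -0.077 and 0.077 on the PC-3 arrays, lower on all 4 TEM arrays. These differences compare changes and not levels, and they were not tested.

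On a list of other protease inhibitors and their relatives, most genes that could be tested were lower in both TEM lines. Of 20 listed genes, 16 had a probe set and 8 were tested. Of these 8, 6 were lower and 0 higher in TEM4-18, and 6 lower and 0 higher in TEM2-5, with a median log2 fold change of -3.17 in TEM4-18 and -1.76 in TEM2-5. Of all tested genes, 16% were lower in TEM4-18 and 10.1% in TEM2-5. PI3, the gene of the elastase inhibitor elafin, read 288 and 299 on the TEM4-18 arrays and 6475 and 7203 on the TEM2-5 arrays, against 31743 and 34646 on the PC-3 arrays. Its log2 fold changes were -6.59 ± 0.10 in TEM4-18 (adjusted p = 1.97e-10) and -2.27 ± 0.10 in TEM2-5 (adjusted p = 1.83e-06). SLPI, an inhibitor secreted by mucosal epithelia, stood at -4.35 ± 0.23 in TEM4-18 and -2.19 ± 0.23 in TEM2-5, and SERPINB5, the gene of maspin, at -3.83 ± 0.16 in TEM4-18 and -1.24 ± 0.16 in TEM2-5. CST6, which encodes a cystatin that blocks cysteine proteases, was at -3.79 ± 0.20 in TEM4-18 and -2.50 ± 0.20 in TEM2-5. SERPINA1, the gene of alpha-1-antitrypsin, was at -2.55 ± 0.21 in TEM4-18 and -1.96 ± 0.21 in TEM2-5. The sixth was SPINK6, an inhibitor of kallikreins of the skin, named after its values were seen. It read 59.8 and 149 on the TEM4-18 arrays and 312 and 106 on the TEM2-5 arrays, against 689 and 616 on the PC-3 arrays, with every TEM array below both PC-3 arrays. Its log2 fold changes were -2.23 ± 0.46 in TEM4-18 (adjusted p = 0.00511) and -1.55 ± 0.46 in TEM2-5 (adjusted p = 0.0451). The adjusted p in TEM2-5 lay just under the threshold. The TEM4-18 mean of SPINK6 lay below the filter, which the gene passed through the other lines. SERPINE2 and WFDC2 passed in neither line. On the log2 scale they stood in TEM4-18 at -0.47 for SERPINE2 and -0.30 for WFDC2, and in TEM2-5 at 0.29 for SERPINE2 and -0.10 for WFDC2.

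**Figure D3:**
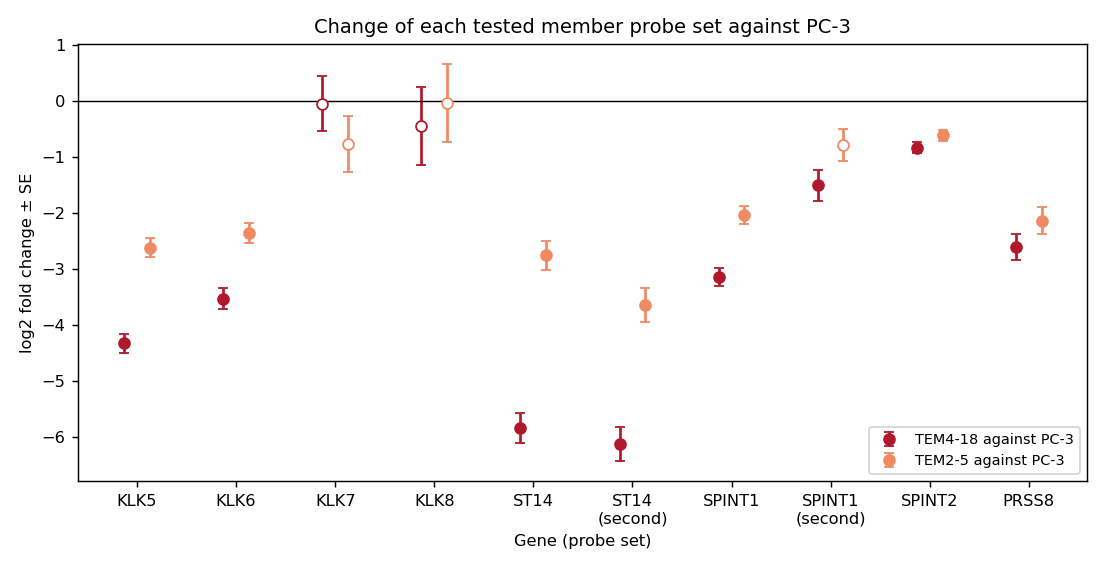
Log2 fold change against PC-3, with the standard error of the fit, of the 10 tested member probe sets in TEM4-18 and TEM2-5 (filled where the adjusted p is under 0.05). ST14 reaches -5.85 in TEM4-18 and -2.76 in TEM2-5, SPINT2 lies at -0.84 in TEM4-18 and -0.62 in TEM2-5, and the open points are KLK7, KLK8 and the second SPINT1 probe set in TEM2-5.

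A direct comparison set TEM4-18 against TEM2-5. Of 8 tested members, 4 were lower and 0 higher in TEM4-18 than in TEM2-5, where 2.26% of all tested genes were lower and 0.492% higher. ST14 had the largest difference, at -3.09 ± 0.27 on the log2 scale (adjusted p = 0.000138), and its second probe set gave -2.49 ± 0.31 (adjusted p = 0.00209). KLK5 differed by -1.71 ± 0.17 (adjusted p = 0.000486), KLK6 by -1.17 ± 0.18 (adjusted p = 0.00935) and SPINT1 by -1.10 ± 0.16 (adjusted p = 0.00555). PRSS8, at -0.47 ± 0.24 (adjusted p = 0.476), and SPINT2, at -0.22 ± 0.10 (adjusted p = 0.398), did not pass, which does not show that they were equal. KLK7 stood at 0.72 ± 0.49 (adjusted p = 0.636) and KLK8 at -0.41 ± 0.70 (adjusted p = 0.880). All 6 genes that fell in both lines had the lower mean in TEM4-18. This comparison depended on single arrays and on the variance model: the count was 2 without TEM2-5 replicate 2, when KLK6 (adjusted p = 0.0986) and SPINT1 (adjusted p = 0.0683) no longer passed, and 1 without the mean-variance trend, when KLK5 alone passed. KLK6 was also lost without TEM4-18 replicate 2 (adjusted p = 0.0535). With all 3 probe sets of ST14 averaged, its difference was -1.63 (adjusted p = 0.0159), as the mean then holds the third probe set, which lay below the filter. With both probe sets of SPINT1 averaged, its difference was -0.91 and no longer passed (adjusted p = 0.0749).

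Among substrates and receptors of these proteases, genes were called in both directions. Of 24 listed genes, 13 were tested, with 6 lower and 3 higher in TEM4-18 and 5 lower and 3 higher in TEM2-5, and a median log2 fold change of -0.16 in TEM4-18 and -0.15 in TEM2-5. The background was 16% lower and 13.3% higher in TEM4-18 and 10.1% lower and 8.98% higher in TEM2-5. The surface glycoprotein EPCAM, which matriptase can cut, fell, at -4.50 ± 0.094 in TEM4-18 and -2.03 ± 0.094 in TEM2-5. CLDN7, the claudin that binds it, stood at -4.47 ± 0.35 in TEM4-18 and -2.27 ± 0.35 in TEM2-5, and the tight junction gene OCLN at -3.69 ± 0.17 in TEM4-18 and -2.17 ± 0.17 in TEM2-5. Of the protease-activated receptor genes, F2R and F2RL2 were tested. The F2R probe set ends in _x_at and can match related transcripts. F2R, the thrombin receptor, read 5527 and 5361 on the TEM4-18 arrays and 4271 and 4734 on the TEM2-5 arrays, against 3703 and 2174 on the PC-3 arrays. All TEM values exceeded both PC-3 values, with log2 fold changes of 0.93 ± 0.19 in TEM4-18 (adjusted p = 0.00517) and 0.65 ± 0.19 in TEM2-5 (adjusted p = 0.0434). F2RL2, a further receptor of the family, read 188 and 336 on the TEM4-18 arrays and 445 and 532 on the TEM2-5 arrays, against 39.9 and 64.8 on the PC-3 arrays, with log2 fold changes of 1.56 ± 0.41 in TEM4-18 (adjusted p = 0.0173) and 2.38 ± 0.41 in TEM2-5 (adjusted p = 0.00301). The PC-3 signals of F2RL2 lay about the pseudocount and below the filter, so it was tested only through the TEM lines, where it was high, and its call adds no support. The remaining gene that rose in both lines was CDCP1, a matriptase substrate named after its values were seen, at 0.51 ± 0.084 in TEM4-18 and 0.49 ± 0.084 in TEM2-5. F2RL3 lay below the filter, and F2RL1, also listed, had no single-symbol probe set, so its state is not known here. PLAU, the gene of the urokinase plasminogen activator that matriptase can activate, read 31939.8 and 35276 on the TEM4-18 arrays and 39204 and 34686 on the TEM2-5 arrays, against 54519 and 49521 on the PC-3 arrays, and was lower on every TEM array at -0.63 ± 0.081 in TEM4-18 and -0.49 ± 0.081 in TEM2-5. MST1R, the receptor of macrophage-stimulating protein, was lower as well, at -0.91 ± 0.17 in TEM4-18 and -0.60 ± 0.17 in TEM2-5. SCNN1G, a subunit of the epithelial sodium channel, fell in TEM4-18, at -1.89 ± 0.43 (adjusted p = 0.00834), and stood at -0.27 ± 0.43 in TEM2-5 (adjusted p = 0.730). Its TEM4-18 signals of 55.0 and 54.3 lay near the pseudocount, against 444 and 263 in PC-3. SCNN1G passed the filter through the other lines. PLAU, MST1R and SCNN1G were also named after their values were seen. MET, the receptor of hepatocyte growth factor and likewise singled out afterwards, did not pass, at -0.052 ± 0.063 in TEM4-18 (adjusted p = 0.609) and -0.079 ± 0.063 in TEM2-5 (adjusted p = 0.456).

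**Figure D4:**
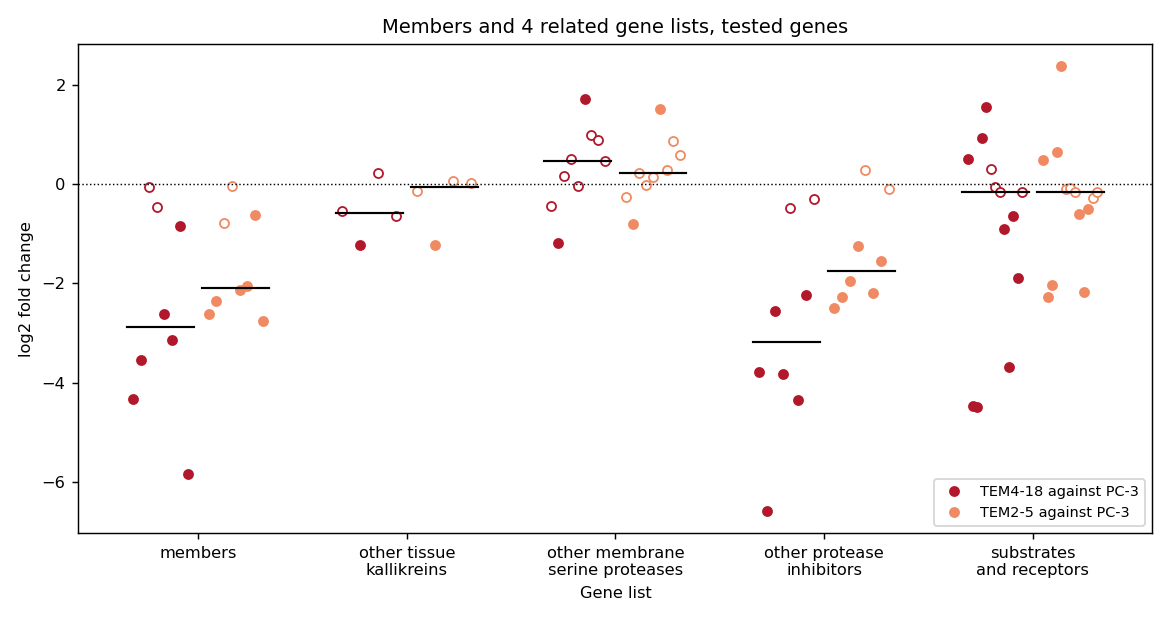
Log2 fold change against PC-3 of tested genes (brightest probe set) for the members and 4 related lists, with a point per gene in TEM4-18 and in TEM2-5, filled where the adjusted p is under 0.05, and a black bar at the median. The medians in TEM4-18 are -2.88 for the members and -3.17 for the other inhibitors, those in TEM2-5 are -2.09 and -1.76 for the same lists, and those of the other membrane proteases lie above 0.

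Genes with the most similar pattern were found by the Euclidean distance between the 6 log2 signals after subtraction of each gene's PC-3 mean, over all 13621 tested genes. This is a description over 6 arrays of 3 lines and has no p-value. For ST14 the nearest were EPPK1 (0.68), C1orf116 (0.96) and VGLL1 (1.02), with the distance in log2 units in parentheses. EPPK1 encodes epiplakin, a linker of epithelial keratins. For KLK5 they were AQP3 (0.28), TNS4 (0.40) and PTGS2 (0.48), of which AQP3 encodes a water and glycerol channel of epithelia and PTGS2 an enzyme of prostaglandin synthesis. KLK6 had ATF3 (0.31), EPN3 (0.35) and COXFA4L3 (0.40), ATF3 being a stress-induced transcription factor. For PRSS8 the list began with the protease inhibitor gene described above, as SERPINA1 (0.43), XK (0.44) and SLAIN1 (0.51). SPINT1 had BSPRY (0.26), PRR15 (0.45) and ZNF165 (0.46), and SPINT2 PIM3 (0.16), HOOK2 (0.16) and RABGGTA (0.17). KLK7 had SYN2 (0.37), CSPG5 (0.45) and ESPNL (0.49), and KLK8 SLC43A2 (0.79), SLC22A7 (0.91) and LINC02091 (0.91). Among the members themselves, the closest pair was KLK6 and SPINT1, at a distance of 0.74, where SPINT1 was number 19 in the order of distance from KLK6. PRSS8 was number 39 from SPINT1 (distance 0.82), and KLK6 number 39 from its neighbour KLK5 (distance 1.22).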

How the data were processed

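The authors deposited 1 linear signal intensity per probe set and array. Per the submitters' processing notes the tool was MAS5, with its version not given, and genome build and detection calls are not given in the sources used here. The 2% trimmed mean lay between 1500.17 and 1500.18 on all 6 arrays, so values were not rescaled. Of 54675 probe sets, 62 were controls and stayed out of the tests. The platform annotation gave 41097 probe sets 1 symbol, 1801 several and 11777 none. By gene ID, 41043 matched a RefSeq table (GRCh38.p14), with 0 symbols changed. The filter was the 40th percentile of probe-set means and the pseudocount the 20th percentile of all values. Fold changes on the log2(value + 51.8) scale understate changes of low signals, and MAS5 subtracts mismatch signals, which makes low values noisy. Probe sets ending in _s_at or _x_at can match related transcripts.

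Linear models (limma 3.58.1, R 4.3.3, lmFit and eBayes with a trend) had 3 line means and 3 residual degrees of freedom, with a median residual SD of 0.170. Contrasts were two-sided. The fit was tested on simulated data. From each related list, the 5 called genes with the largest change on the mean of both TEM lines were named, and for each tested member the 3 nearest genes. Members, lists and alternatives were chosen with earlier results of these data known. The number of arrays limits the precision. Groups of 2 arrays are too small for permutation tests. Replicate numbers were taken from titles; 1 source name of TEM2-5 disagrees. The alternatives were other pseudocounts, filters, normalization, variance model, a replicate block, averaged probe sets and leaving out each array.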

Additional observations from a re-analysis of the deposited data

Results flagged for a closer look

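The change against PC-3 differed between the TEM lines for 4 members, by limma's direct test of TEM4-18 against TEM2-5 on the log2 scale with Benjamini-Hochberg adjustment. The difference was -3.09 ± 0.27 (adjusted p = 0.000138) for ST14, -1.71 ± 0.17 (adjusted p = 0.000486) for KLK5, -1.17 ± 0.18 (adjusted p = 0.00935) for KLK6 and -1.10 ± 0.16 (adjusted p = 0.00555) for SPINT1. Each of the 2 TEM4-18 arrays lay below both TEM2-5 arrays for these genes. Without the mean-variance trend, KLK5 alone of these members passed.

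Among the genes named from the list of other protease inhibitors and relatives, the same test gave -4.32 ± 0.10 (adjusted p = 7.3e-09) for PI3, -2.59 ± 0.16 (adjusted p = 1.08e-05) for SERPINB5, -2.16 ± 0.23 (adjusted p = 0.000687) for SLPI and -1.29 ± 0.20 (adjusted p = 0.00916) for CST6. Among substrates it gave -2.47 ± 0.094 (adjusted p = 1.91e-07) for EPCAM, -2.19 ± 0.35 (adjusted p = 0.00952) for CLDN7 and -1.52 ± 0.17 (adjusted p = 0.00098) for OCLN. All 11 differences were negative, TEM4-18 being lower. Only genes that passed this test are given, and those outside the members were named for a large change on the mean of both TEM lines. Among all 13621 tested genes, 308 were called lower and 67 higher in the same comparison, so the shared sign is no result about these genes. Each rests on 1 isolate per line.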

How the results depend on the processing

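Over 32 log2 fold changes of tested members and 436 values under alternatives, 428 kept their direction or stayed uncalled and kept their side of the threshold, 8 lost the call and 0 called values changed sign. The lost calls were those of SPINT2 in TEM2-5 against PC-3 without the trend (adjusted p = 0.0657) and, between the TEM lines, of KLK6, ST14 and SPINT1, with adjusted p up to 0.0986 for KLK6, 0.0517 for ST14 and 0.153 for SPINT1. The cause was not tested. With no filter, 1 member was called higher in TEM4-18 against PC-3, KLK10. Members lower in TEM4-18 than in TEM2-5 numbered 1 without the trend and 2 to 4 when single arrays were left out. Over all probe sets, calls without the trend were 2692 lower and 2668 higher in TEM4-18, 1081 and 1239 in TEM2-5, 2626 and 2835 on the mean of both against PC-3, and 122 and 3 between the TEM lines. Between the TEM lines they were 253 lower and 47 higher with no filter. With single arrays left out, ranges were 3006 to 3908 lower and 2872 to 3839 higher in TEM4-18, 1334 to 2480 and 1490 to 2655 in TEM2-5, 2642 to 3795 and 3130 to 3838 on the mean, and 196 to 414 and 17 to 136 between the TEM lines. Leaving out an array assumes that the lone array of its line varies like the others. The labels link arrays of different lines only by a replicate number, and same-numbered deviations correlated at 0.062 to 0.098 across probe sets. In each line, replicate 1 had the higher median signal and the lower 95th percentile. The medians of replicates 1 and 2 were 296 and 267 in TEM4-18, 310 and 281 in TEM2-5, and 317 and 282 in PC-3. What the number stands for is not known. With the replicate number as a block, 6 members were lower in TEM4-18 and 6 in TEM2-5 against PC-3, and 4 between the TEM lines, with no member call changed. Under the block, all probe sets called higher between the TEM lines numbered 214, against 117 without it.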
